A study of Homo sapiens with 12 samples.

Results

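The genes described here encode the enzymes that build cholesterol and fatty acids, with the proteins that control the genes of those enzymes. They were chosen by name, with earlier results of these data known. There are 36 in all: 19 of the sterol branch, 5 regulators and 12 of the fatty acid branch. Each was read through a probe set whose annotation names that gene alone. Of these, 33 were measured among the 18417 genes on the array, 17 of the sterol branch, all 5 regulators and 11 of the fatty acid branch, and all 33 were tested with no filter on low values. FDFT1 and ACSL3 had no probe set of their own in the annotation used, and HSD17B7 shared its probe set with the pseudogene HSD17B7P2, so the levels of these 3 genes were not analysed here.

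The arrays came from MCF10A, an immortalised but non-tumorigenic human breast epithelial line, in which all 4 groups carried a stably transfected chimera of the full-length human receptor HER2 with tags of FKBP and HA. The groups, with 3 arrays each, were cells given AP1510 for 48 hours, cells given TGF-alpha for 48 hours, cells given heregulin for 48 hours, and untreated cells. AP1510 is a bivalent compound that joins FKBP-tagged HER2 molecules in pairs. TGF-alpha binds EGFR, whereas heregulin binds HER3 or HER4, so the design asks what each mode of ErbB receptor engagement changes. Serum and EGF had been withdrawn 24 hours before ligand in favour of medium with insulin (10 microgram/ml), hydrocortisone (500 ng/ml) and cholera toxin (100 ng/ml). The labels give neither the doses, nor when the untreated cells were harvested, nor whether the line is 1 clone, so treatment and time in culture cannot be told apart in comparisons with untreated cells. The dishes were seeded in triplicate from this 1 line, so the p-values measure the spread between dishes and their arrays.

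The values are log2 intensities, on which a difference of 1 is a 2-fold change, and levels of different probe sets are not compared with each other. A log2 change is followed by its standard error after ±. Arrays correlated at 0.988 to 0.994 within a group and 0.978 to 0.993 between groups; these correlations run across probe sets, and probe sets are no replicates. Of the 5 basal breast epithelial markers measured, KRT5, KRT14, CDH1, CDH3 and EGFR, each had group means between 7.38 and 12.59, above the array medians of 5.33 to 5.44. Of 9 markers of other cells, PTPRC, CD3E, VWF, PDGFRB, ALB and ADIPOQ had group means between 2.92 and 5.14, below these medians, while CD68, PECAM1 and COL1A1 had group means between 6.61 and 8.67. CD68 fell 1.74-fold with TGF-alpha and PECAM1 fell 1.26-fold with heregulin, each against untreated cells, while KRT5 was 1.43-fold higher with AP1510, 2.13-fold with TGF-alpha and 1.76-fold with heregulin. Of the other basal markers, KRT14 was higher with all 3 treatments (1.40-fold, 1.47-fold and 1.55-fold in the same order) and EGFR with TGF-alpha (1.27-fold) and heregulin (1.51-fold), CDH3 fell 1.36-fold with TGF-alpha, and CDH1 with TGF-alpha had a log2 change of -0.21 ± 0.083 (adjusted p = 0.082). Of 5 luminal markers, KRT8 rose 1.53-fold and KRT18 1.88-fold and GATA3 fell 1.74-fold with TGF-alpha, and ESR1 and PGR had group means below the array medians. The part of these markers in the results below was not tested. In bulk samples such as these, a change in the share of cells that express a gene and a change in RNA per cell cannot be told apart.

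Cholesterol synthesis starts from acetyl-CoA, which is built through HMG-CoA and mevalonate into isoprenoid units, then squalene, then lanosterol, and finally cholesterol. Fatty acid synthesis starts from the same acetyl-CoA, made in the cytosol by ATP citrate lyase, which acetyl-CoA carboxylase and fatty acid synthase turn into saturated chains that elongases and desaturases then modify. Both branches answer to the SREBP transcription factors, encoded by SREBF1 and SREBF2. When membrane sterol is low, SCAP escorts SREBP from the endoplasmic reticulum to the Golgi for cleavage, and when sterol is high the INSIG proteins hold the complex back.

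TGF-alpha gave the highest group mean in 14 of the 17 sterol genes, against 29.9% of all genes, and in 11 of these its 3 arrays all lay above the other 9 arrays, against 11% of all genes. AP1510 gave the highest mean in the other 3, LSS, TM7SF2 and STARD4, against 15.6% of all genes. Untreated cells had the lowest mean in 10 sterol genes, against 23% of all genes, and heregulin cells in 5, against 20.6%. AP1510 and TGF-alpha cells had it in 1 each, against 23.3% and 33.1%. In the fatty acid branch the highest mean lay with TGF-alpha in 6 genes, with heregulin in 3 (ACACA, ELOVL5 and ACSL1), against 28.9% of all genes, and with untreated cells in 2 (ACACB and SCD), against 25.6%. The 3 comparisons with untreated cells below share the same 3 untreated arrays, so their values are given side by side and not as independent evidence of one another.

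**Figure D1:**
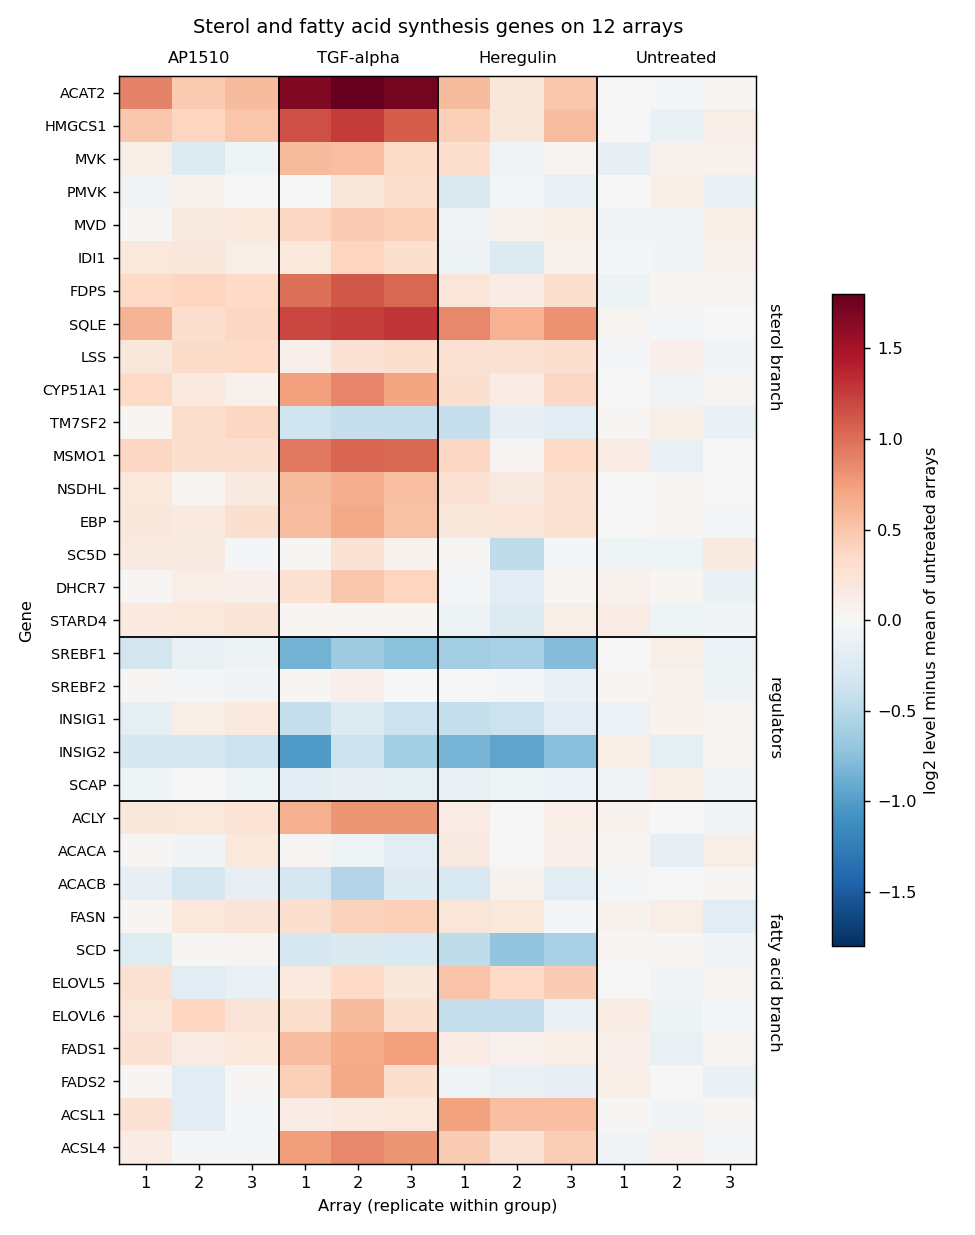
Each row is 1 of the 33 measured genes, in pathway order within the sterol branch, the regulators and the fatty acid branch, and each column is 1 array. Colour gives the log2 level minus the mean of the untreated arrays, red above and blue below. The TGF-alpha columns are red through most of the sterol branch, while SREBF1 and INSIG2 are blue with TGF-alpha and heregulin.

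The comparison of AP1510 with untreated cells addresses HER2 homodimers. Sterol enzymes ACAT2, HMGCS1, FDPS and SQLE rose by under 1 on the log2 scale, and no fatty acid gene or regulator passed the test. The limma fit, with Benjamini-Hochberg adjustment over all genes and a threshold of 0.05, called 4 of 17 sterol genes higher and 0 lower, where 1.47% of all genes passed in either direction and 0.771% were higher and 0.7% lower. The median log2 change was 0.21 over the sterol genes and -0.01 over all genes. The fatty acid branch had 0 of 11 called by limma, with 3 at an unadjusted p under 0.05, and the regulators 0 of 5, with 1 at an unadjusted p under 0.05, where 11.1% of all genes had such a p. The robust, trend, weighted and renormalised fits also called 0 in both of these groups. All 3 AP1510 arrays lay above all 3 untreated arrays in 11 of the 17 sterol genes, against 7.36% of all genes, and below them in 0, against 9.93%. Of genes that did not pass, CYP51A1 had a log2 change of 0.21 ± 0.096 (adjusted p = 0.45), with 0.04 ± 0.088 on its second probe set, EBP a log2 change of 0.23 ± 0.079 (adjusted p = 0.24), NSDHL a log2 change of 0.13 ± 0.081 (adjusted p = 0.62) and MSMO1 a log2 change of 0.32 ± 0.1 (adjusted p = 0.18). LSS, TM7SF2 and STARD4 had log2 changes of 0.30 ± 0.085, 0.25 ± 0.1 and 0.20 ± 0.096 (adjusted p = 0.11, 0.35 and 0.46). The log2 change was positive in 16 of the 17 sterol genes, with MVK at -0.07 ± 0.12 (adjusted p = 0.91). In the other branches ACLY had a log2 change of 0.21 ± 0.082 (adjusted p = 0.3) and INSIG2 a log2 change of -0.32 ± 0.13 (adjusted p = 0.33).

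ACAT2, the cytosolic thiolase that joins 2 acetyl-CoA molecules at the head of the pathway, stood at 9.01, 8.59 and 8.69 in AP1510 cells, 9.79, 9.98 and 9.84 in TGF-alpha cells and 8.69, 8.33 and 8.61 in heregulin cells, against 8.11, 8.10 and 8.15 in untreated cells. No 2 of the 4 groups overlapped except AP1510 and heregulin, and AP1510 replicate 1 was the highest of its group. With AP1510 it rose 1.56-fold (log2 change 0.64 ± 0.12, adjusted p = 0.01). HMGCS1, HMG-CoA synthase, stood at 9.13, 9.03 and 9.14 in AP1510 cells, 9.81, 9.91 and 9.74 in TGF-alpha cells and 9.07, 8.85 and 9.20 in heregulin cells, against 8.64, 8.53 and 8.77 in untreated cells. The untreated arrays were the lowest, and the AP1510 and heregulin arrays overlapped. HMGCS1 rose 1.37-fold (log2 change 0.46 ± 0.1, adjusted p = 0.033) with AP1510.

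FDPS, farnesyl diphosphate synthase, which makes the precursor of squalene and of protein prenyl groups, stood at 8.76, 8.78 and 8.76 in AP1510 cells, 9.39, 9.52 and 9.44 in TGF-alpha cells and 8.62, 8.54 and 8.72 in heregulin cells, against 8.31, 8.44 and 8.45 in untreated cells. The 4 groups did not overlap, in the order TGF-alpha, AP1510, heregulin, untreated. The rise with AP1510 was 1.29-fold (log2 change 0.36 ± 0.083, adjusted p = 0.04). FDPS has pseudogene copies, and probe sets that name FDPSP2 beside it were left out, so reading of a copy by its probe set was not tested. SQLE, squalene epoxidase, the first oxygenation of the pathway, stood at 10.45, 10.14 and 10.21 in AP1510 cells, 11.03, 11.08 and 11.12 in TGF-alpha cells and 10.70, 10.46 and 10.64 in heregulin cells, against 9.88, 9.80 and 9.82 in untreated cells. Here too the 4 groups did not overlap, but with heregulin above AP1510. SQLE rose 1.35-fold (log2 change 0.43 ± 0.095, adjusted p = 0.033) with AP1510.

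These AP1510 calls did not hold under several alternatives. With all probe sets tested 0 of the 17 sterol genes were called, and with only the 2 groups compared 2 were. The sterol count was 0 without AP1510 replicate 1, 1 without AP1510 replicate 3, TGF-alpha replicate 1 or untreated replicate 1 or 2, and 2 without AP1510 replicate 2, TGF-alpha replicate 2 or untreated replicate 3. The call ended without AP1510 replicate 1 for ACAT2 (adjusted p = 0.06), and in 6, 9 and 7 of the 12 refits that left out 1 array for HMGCS1, FDPS and SQLE (adjusted p up to 0.14, 0.18 and 0.17).

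TGF-alpha against untreated asks what an EGFR ligand changes. With TGF-alpha 12 sterol enzymes were higher, ACAT2 the most of these, at steps that run from the head of the pathway to its end. Of 11 fatty acid genes, 6 were higher, 2 were lower (ACACB and SCD) and 3 did not pass. Of the regulators, SREBF1, INSIG1 and INSIG2 were lower. Of 17 sterol genes, 12 were higher, 1 was lower and 4 did not pass, where 26% of all genes passed, 12.5% higher and 13.4% lower. The median log2 change was 0.48 over the sterol genes, 0.38 over the 11 fatty acid genes, -0.35 over the 5 regulators and -0.01 over all genes. The 3 TGF-alpha arrays lay above the 3 untreated arrays in 13 of 17 sterol genes and in 8 of 11 fatty acid genes, against 19.4% of all genes, and below them in 1 sterol and 2 fatty acid genes, against 20.8%.

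At the head of the pathway, ACAT2 rose 3.37-fold (log2 change 1.75 ± 0.12, adjusted p = 1.8e-08) and HMGCS1 2.25-fold (log2 change 1.17 ± 0.1, adjusted p = 2.3e-07). Of the 3 enzymes that carry mevalonate to an isoprenoid unit, MVK, mevalonate kinase, rose 1.40-fold (adjusted p = 0.0053) and MVD, the decarboxylase, 1.33-fold (adjusted p = 0.0018). PMVK, the phosphomevalonate kinase between them, had a log2 change of 0.17 ± 0.1 (adjusted p = 0.27). IDI1, which isomerises the isoprenoid unit, rose 1.22-fold (adjusted p = 0.031), and FDPS, which condenses these units, rose 2.06-fold (log2 change 1.05 ± 0.083, adjusted p = 1e-07). The steps on either side of PMVK thus passed while PMVK itself did not, with a 95% interval of -0.05 to 0.39 on the log2 scale.

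After squalene, SQLE rose 2.37-fold (log2 change 1.24 ± 0.095, adjusted p = 7.2e-08). LSS, lanosterol synthase, which closes the rings, had a log2 change of 0.22 ± 0.085 (adjusted p = 0.078). Its arrays stood at 8.68, 8.80 and 8.83 in AP1510 cells, 8.56, 8.73 and 8.77 in TGF-alpha cells and 8.75, 8.75 and 8.77 in heregulin cells, against 8.43, 8.56 and 8.42 in untreated cells. They overlapped among the 3 treatments, and all treated arrays lay above the untreated range. The lowest TGF-alpha array lay so little above the highest untreated array that both round to 8.56. CYP51A1, which removes a methyl group from lanosterol, rose 1.71-fold (log2 change 0.78 ± 0.096, adjusted p = 1.1e-05). It has a second, dimmer probe set of its own, on which the rise was 0.55 ± 0.088 on the log2 scale (adjusted p = 0.00095 over all probe sets).

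MSMO1, the methyl sterol monooxygenase that starts removal of the remaining methyl groups, stood at 9.65, 9.57 and 9.56 in AP1510 cells, 10.23, 10.32 and 10.31 in TGF-alpha cells and 9.65, 9.32 and 9.64 in heregulin cells, against 9.42, 9.14 and 9.27 in untreated cells. The TGF-alpha arrays were the highest with no overlap, and the heregulin arrays overlapped both the AP1510 and the untreated arrays. It rose 2.02-fold (log2 change 1.01 ± 0.1, adjusted p = 1.2e-06). NSDHL, which acts in the same demethylation, rose 1.5-fold (adjusted p = 3.6e-05), EBP, the sterol isomerase, 1.5-fold (adjusted p = 2.8e-05), and DHCR7, which performs the last reduction to cholesterol, 1.30-fold (adjusted p = 0.0056). SC5D, the sterol desaturase before DHCR7, had a log2 change of 0.11 ± 0.12 (adjusted p = 0.61), and STARD4, which carries sterol between membranes, a log2 change of 0.03 ± 0.096 (adjusted p = 0.88).

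TM7SF2, a sterol reductase that acts on the product of CYP51A1, was the sterol gene that went the other way. It stood at 7.08, 7.36 and 7.41 in AP1510 cells, 6.68, 6.63 and 6.62 in TGF-alpha cells and 6.63, 6.89 and 6.83 in heregulin cells, against 7.06, 7.14 and 6.92 in untreated cells. Its AP1510 and untreated arrays overlapped, and its TGF-alpha arrays lay below all of them and overlapped the heregulin arrays. It fell 1.31-fold (log2 change -0.39 ± 0.1, adjusted p = 0.0084) with TGF-alpha.

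**Figure D2:**
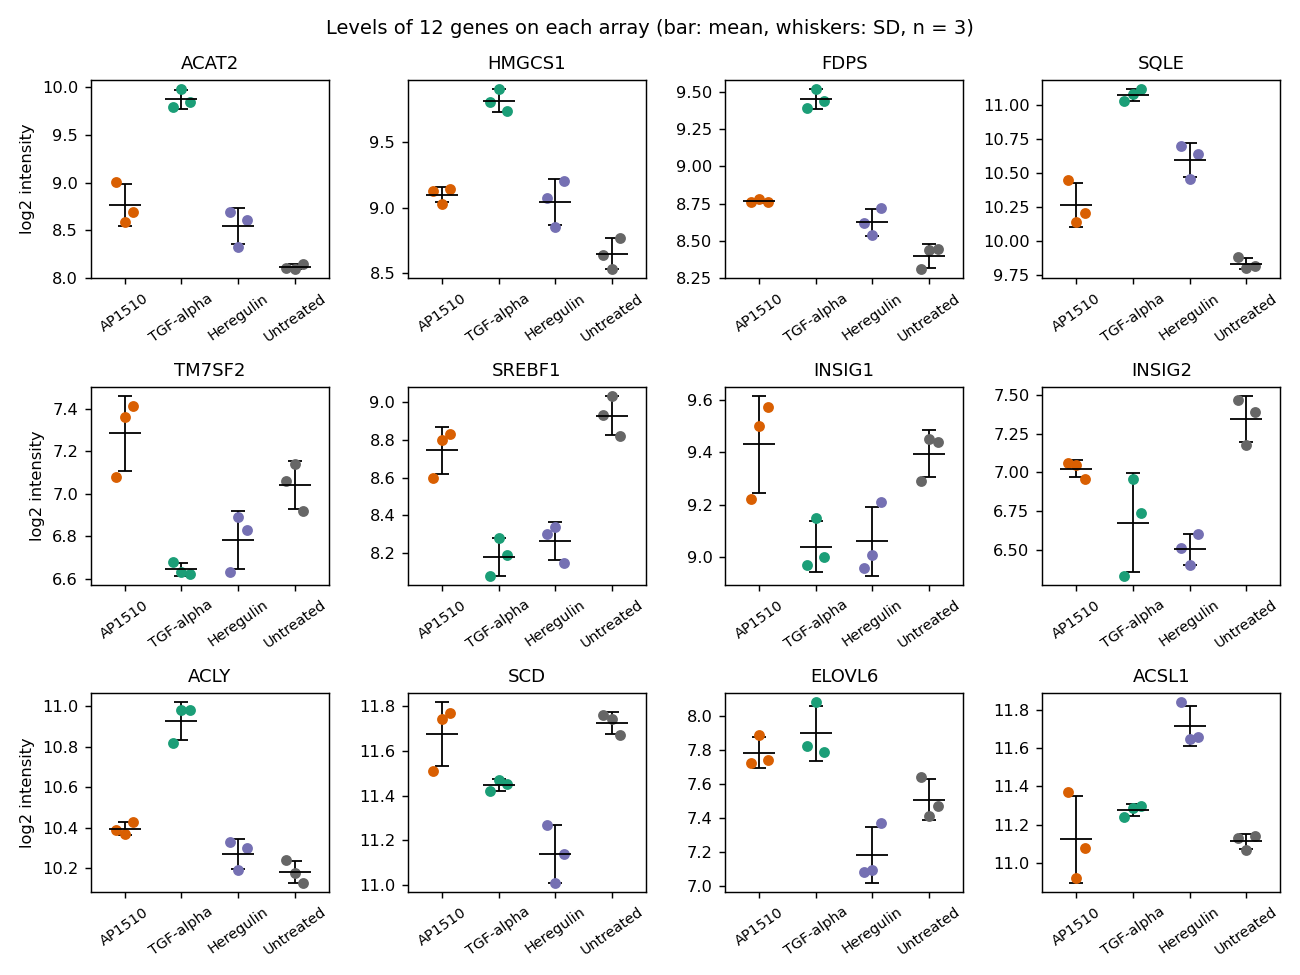
Each panel is 1 gene, with the log2 intensity of each array as a point on a vertical axis that does not start at 0, the group mean as a bar and the SD as whiskers (n = 3). ACAT2, HMGCS1, FDPS, SQLE and ACLY are highest with TGF-alpha, ACSL1 with heregulin, and SREBF1 and INSIG2 are lower with TGF-alpha and heregulin than in untreated cells.

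Promoters of 3 sterol genes that rose with TGF-alpha, and of the regulator SREBF2, which did not pass the test, are shown as a description. A link between these promoters and the changes was not tested. RefSeq promoter windows for GRCh38.p14, 300 bases from 250 before to 50 after the start of the gene, were held for 32 of the 36 genes; ACAT2, FDFT1, SQLE and FASN are named only. HMGCS1, FDPS and MSMO1 are the 3 genes with the largest rise with TGF-alpha that can be printed, and SREBF2 was added after its match was seen. Each runs 5′ to 3′ on the strand of its gene, and capitals mark CCAAT on either strand, the NF-Y box, and TCACNCCAC, a form of the sterol regulatory element.
HMGCS1, chr5:43313363-43313662, minus strand: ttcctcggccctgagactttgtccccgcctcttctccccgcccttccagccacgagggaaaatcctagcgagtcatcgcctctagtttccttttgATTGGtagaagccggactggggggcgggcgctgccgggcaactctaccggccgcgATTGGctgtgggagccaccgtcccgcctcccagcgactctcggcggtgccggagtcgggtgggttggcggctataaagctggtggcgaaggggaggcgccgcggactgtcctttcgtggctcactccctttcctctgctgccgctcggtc
FDPS, chr1:155308616-155308915, plus strand: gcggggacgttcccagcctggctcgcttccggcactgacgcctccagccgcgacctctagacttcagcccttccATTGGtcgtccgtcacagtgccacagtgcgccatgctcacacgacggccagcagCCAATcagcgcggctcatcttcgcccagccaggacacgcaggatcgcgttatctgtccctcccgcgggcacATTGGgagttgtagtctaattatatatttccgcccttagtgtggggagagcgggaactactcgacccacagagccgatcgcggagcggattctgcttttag
MSMO1, chr4:165327419-165327718, plus strand: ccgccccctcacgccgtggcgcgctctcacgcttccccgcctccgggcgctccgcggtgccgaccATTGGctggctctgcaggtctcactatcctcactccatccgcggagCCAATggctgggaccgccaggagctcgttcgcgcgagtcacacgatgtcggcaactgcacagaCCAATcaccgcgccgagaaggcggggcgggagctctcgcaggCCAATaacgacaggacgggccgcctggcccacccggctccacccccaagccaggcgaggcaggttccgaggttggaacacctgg
SREBF2, chr22:41832855-41833154, plus strand: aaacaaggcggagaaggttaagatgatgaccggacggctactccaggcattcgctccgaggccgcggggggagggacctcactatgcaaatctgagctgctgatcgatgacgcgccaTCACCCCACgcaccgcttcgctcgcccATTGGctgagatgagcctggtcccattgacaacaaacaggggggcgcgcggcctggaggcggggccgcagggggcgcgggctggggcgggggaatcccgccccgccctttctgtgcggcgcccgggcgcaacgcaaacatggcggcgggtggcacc

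HMGCS1 held 2 matches to CCAAT, FDPS 3 and MSMO1 4. On either strand, CCAAT was present in 13 of 16 sterol promoters (81.2%), 4 of 11 fatty acid promoters (36.4%) and 2 of 5 regulator promoters (40.0%), against 36.3% of the 14239 promoters of genes tested. GGGCGG, the GC box, was present in 15 of 16 sterol promoters (93.8%), 8 of 11 fatty acid promoters (72.7%) and 5 of 5 regulator promoters (100.0%), against 60.0% of promoters of genes tested. TCACNCCAC was present in 1 of the 32, SREBF2, against 1.14% of promoters of genes tested, and CACGTG, the E-box, in 5 of the 32, against 8.88%. The sterol counts include HSD17B7 and the fatty acid counts ACSL3, which were not among the genes tested and each held CCAAT and GGGCGG. Matches of different motifs overlapped in 0 of the 32 windows. Of the sterol genes that rose with TGF-alpha, CCAAT was present in the promoters of HMGCS1, FDPS, MSMO1, DHCR7, EBP, MVD, MVK and NSDHL. It was absent from those of IDI1 and CYP51A1, which also rose. It was present in SC5D, LSS and STARD4, which did not pass the test, and in TM7SF2, which fell. PMVK, which did not pass, lacked it. A match here is a run of letters and describes the window only.

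Among the regulators, SREBF1, the gene of SREBP-1, stood at 8.60, 8.80 and 8.83 in AP1510 cells, 8.08, 8.28 and 8.19 in TGF-alpha cells and 8.30, 8.34 and 8.15 in heregulin cells, against 8.93, 9.03 and 8.82 in untreated cells. The TGF-alpha and heregulin arrays overlapped each other and lay below all AP1510 and untreated arrays, which overlapped. SREBF1 fell 1.68-fold (log2 change -0.75 ± 0.096, adjusted p = 1.7e-05) with TGF-alpha. SREBF2, the gene of SREBP-2, which mainly serves the sterol genes, stood at 8.91, 8.86 and 8.85 in AP1510 cells, 8.92, 8.98 and 8.89 in TGF-alpha cells and 8.88, 8.86 and 8.77 in heregulin cells, against 8.93, 8.95 and 8.80 in untreated cells. All of its arrays lay within a narrow band, the group means spanned 0.09 on the log2 scale, and its change with TGF-alpha was 0.04 (95% interval -0.13 to 0.21, adjusted p = 0.81).

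INSIG1, itself a known target of SREBP, stood at 9.22, 9.5 and 9.57 in AP1510 cells, 8.97, 9.15 and 9 in TGF-alpha cells and 8.96, 9.01 and 9.21 in heregulin cells, against 9.29, 9.45 and 9.44 in untreated cells. The TGF-alpha and heregulin arrays overlapped each other and lay below all AP1510 and untreated arrays, which overlapped as well. It fell 1.28-fold (log2 change -0.35 ± 0.11, adjusted p = 0.019) with TGF-alpha. INSIG2, the second retention protein, stood at 7.06, 7.05 and 6.96 in AP1510 cells, 6.33, 6.96 and 6.74 in TGF-alpha cells and 6.51, 6.40 and 6.60 in heregulin cells, against 7.47, 7.18 and 7.39 in untreated cells. Untreated arrays were the highest with no overlap, and the TGF-alpha arrays spread most, from 6.33 to 6.96. It fell 1.59-fold (log2 change -0.67 ± 0.13, adjusted p = 0.00088) with TGF-alpha. SCAP, the escort of SREBP, had a log2 change of -0.17 ± 0.08 (adjusted p = 0.14).

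In fatty acid synthesis, ACLY, ATP citrate lyase, stood at 10.39, 10.37 and 10.43 in AP1510 cells, 10.82, 10.98 and 10.98 in TGF-alpha cells and 10.33, 10.19 and 10.30 in heregulin cells, against 10.24, 10.18 and 10.13 in untreated cells. The TGF-alpha arrays were the highest with no overlap, and the heregulin and untreated arrays overlapped. ACLY rose 1.68-fold (log2 change 0.74 ± 0.082, adjusted p = 3.4e-06) with TGF-alpha. ACACA, the acetyl-CoA carboxylase of the cytosol, had a log2 change of -0.08 ± 0.097 (adjusted p = 0.66). ACACB, the carboxylase at mitochondria, fell 1.28-fold (adjusted p = 0.016), with group means of 4.26 to 4.62, below the array medians. FASN, fatty acid synthase, rose 1.30-fold (adjusted p = 0.01).

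Of the enzymes that modify fatty acids, FADS1 stood at 7.65, 7.54 and 7.58 in AP1510 cells, 7.94, 8.06 and 8.13 in TGF-alpha cells and 7.54, 7.46 and 7.51 in heregulin cells, against 7.48, 7.25 and 7.43 in untreated cells. The TGF-alpha arrays were the highest with no overlap, and the heregulin arrays overlapped the untreated arrays and met the lowest AP1510 array at 7.54. FADS1 rose 1.58-fold (log2 change 0.66 ± 0.088, adjusted p = 2.4e-05) and FADS2 rose 1.39-fold (adjusted p = 0.0035), desaturases of polyunsaturated chains. Their genes overlap on chromosome 11 (FADS1 at 61799627 to 61817003, FADS2 at 61816203 to 61867354, GRCh38.p14, opposite strands), so signal shared at that edge was not tested. ELOVL6, which elongates saturated chains, rose 1.31-fold (adjusted p = 0.012), and ELOVL5, which elongates polyunsaturated chains, had a log2 change of 0.25 ± 0.11 (adjusted p = 0.13). SCD, the stearoyl-CoA desaturase that makes oleate, fell 1.21-fold (adjusted p = 0.04).

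Of the acyl-CoA synthetases, which activate free fatty acids, ACSL4 prefers arachidonate and stood at 8.71, 8.55 and 8.55 in AP1510 cells, 9.33, 9.45 and 9.38 in TGF-alpha cells and 9.04, 8.85 and 9.02 in heregulin cells, against 8.53, 8.66 and 8.56 in untreated cells. The order TGF-alpha, heregulin, then AP1510 with untreated held without overlap among the first, the second and the rest. ACSL4 rose 1.75-fold (log2 change 0.80 ± 0.088, adjusted p = 3.1e-06) with TGF-alpha. ACSL1, by contrast, had a log2 change of 0.17 ± 0.1 (adjusted p = 0.3).

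Leaving out 1 array gave 12 to 14 sterol genes called and 5 to 9 fatty acid genes, with 5 without TGF-alpha replicate 2 or untreated replicate 3, against 8 with all arrays. Calls ended for IDI1 without TGF-alpha replicate 2 or 3 or untreated replicate 1 or 2, for INSIG1 without TGF-alpha replicate 1 or 3 or untreated replicate 2 or 3, for ACACB without TGF-alpha replicate 2 or untreated replicate 3, for FASN without untreated replicate 3, for ELOVL6 without TGF-alpha replicate 2 or untreated replicate 2 and for SCD without TGF-alpha replicate 1, 2 or 3, heregulin replicate 3 or untreated replicate 1, 2 or 3.

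**Figure D3:**
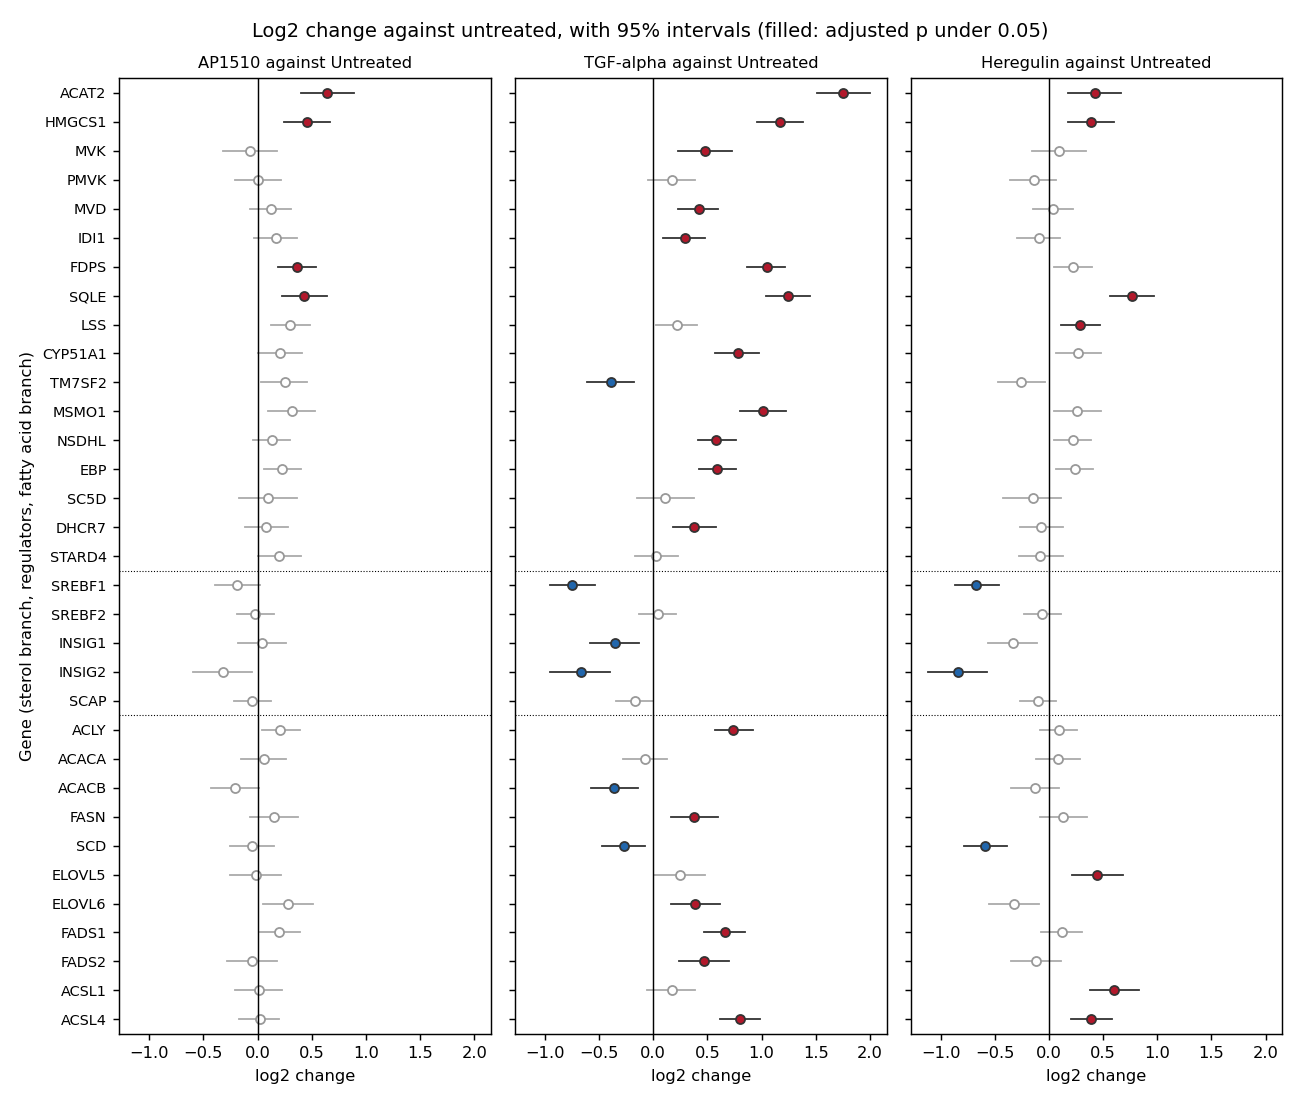
Points are log2 changes against untreated cells for the 33 genes, in 3 panels for AP1510, TGF-alpha and heregulin on a common axis, with 95% intervals as lines. Filled red points passed the test as higher and filled blue points as lower; open points did not pass. TGF-alpha has 18 red and 6 blue points, heregulin 7 and 3, and AP1510 4 and 0.

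Heregulin against untreated asks what a HER3 and HER4 ligand changes. With heregulin SQLE, ACAT2, HMGCS1 and LSS of the sterol genes and ACSL1, ELOVL5 and ACSL4 of the fatty acid genes were higher. SCD, SREBF1 and INSIG2 were lower. Of 17 sterol genes 4 were higher and 0 lower, where 8.5% of all genes passed, 3.45% higher and 5.06% lower. Of 11 fatty acid genes 3 were higher and 1 lower, and of 5 regulators 2 were lower. The median log2 change was 0.22 over sterol genes, 0.09 over fatty acid genes, -0.33 over regulators and 0.01 over all genes. The 3 heregulin arrays lay above the 3 untreated arrays in 8 of 17 sterol genes, against 10.5% of all genes.

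SQLE rose 1.70-fold (log2 change 0.77 ± 0.095, adjusted p = 6e-05) with heregulin. ACAT2 rose 1.34-fold (adjusted p = 0.03), HMGCS1 1.31-fold (adjusted p = 0.022) and LSS 1.22-fold (adjusted p = 0.047). FDPS had a log2 change of 0.22 ± 0.083 (adjusted p = 0.12), CYP51A1 a log2 change of 0.27 ± 0.096 (adjusted p = 0.1), with 0.12 ± 0.088 on its second probe set, MSMO1 a log2 change of 0.26 ± 0.1 (adjusted p = 0.14), NSDHL a log2 change of 0.22 ± 0.081 (adjusted p = 0.11) and EBP a log2 change of 0.24 ± 0.079 (adjusted p = 0.077). The log2 change was positive in 11 of the 17 sterol genes. At the end of the pathway DHCR7 had a log2 change of -0.07 ± 0.093 (adjusted p = 0.75). The log2 changes of PMVK, IDI1, SC5D and STARD4 were -0.14 ± 0.1, -0.09 ± 0.093, -0.15 ± 0.12 and -0.08 ± 0.096 (adjusted p = 0.48, 0.65, 0.55 and 0.73). TM7SF2 had a log2 change of -0.26 ± 0.1 (adjusted p = 0.16), with its 3 heregulin arrays below the 3 untreated arrays.

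Of the regulators, INSIG2 fell 1.79-fold (log2 change -0.84 ± 0.13, adjusted p = 0.00049) and SREBF1 fell 1.59-fold (log2 change -0.67 ± 0.096, adjusted p = 0.00025). INSIG1 had a log2 change of -0.33 ± 0.11 (adjusted p = 0.066), SREBF2 a log2 change of -0.06 ± 0.079 (adjusted p = 0.76) and SCAP a log2 change of -0.10 ± 0.08 (adjusted p = 0.53).

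SCD stood at 11.51, 11.74 and 11.77 in AP1510 cells, 11.42, 11.47 and 11.45 in TGF-alpha cells and 11.27, 11.01 and 11.14 in heregulin cells, against 11.76, 11.74 and 11.67 in untreated cells. Heregulin arrays were the lowest and TGF-alpha arrays the next lowest, with no overlap between them, and the AP1510 and untreated arrays overlapped above. SCD fell 1.5-fold (log2 change -0.59 ± 0.093, adjusted p = 0.00065) with heregulin. ACSL1, which activates long saturated and monounsaturated chains, stood at 11.37, 10.92 and 11.08 in AP1510 cells, 11.24, 11.29 and 11.30 in TGF-alpha cells and 11.84, 11.65 and 11.66 in heregulin cells, against 11.13, 11.07 and 11.14 in untreated cells. Heregulin arrays were the highest with no overlap, and AP1510 replicate 1 stood above the TGF-alpha arrays while replicates 2 and 3 of that group did not. ACSL1 rose 1.52-fold (log2 change 0.60 ± 0.1, adjusted p = 0.0013) with heregulin.

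ELOVL5 stood at 10.82, 10.35 and 10.41 in AP1510 cells, 10.72, 10.90 and 10.74 in TGF-alpha cells and 11.06, 10.90 and 11 in heregulin cells, against 10.54, 10.49 and 10.59 in untreated cells. The heregulin arrays lay above all untreated arrays, and AP1510 replicate 1 lay within the TGF-alpha range while the other 2 of its group lay below the untreated arrays. ELOVL5 rose 1.36-fold (adjusted p = 0.02) with heregulin, and ACSL4 rose 1.31-fold (adjusted p = 0.01). ACLY had a log2 change of 0.09 ± 0.082 (adjusted p = 0.61), FASN a log2 change of 0.13 ± 0.1 (adjusted p = 0.52) and FADS1 a log2 change of 0.12 ± 0.088 (adjusted p = 0.5). ELOVL6 had a log2 change of -0.32 ± 0.11 (adjusted p = 0.084).

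Heregulin replicates 1 and 2 deviated more than replicate 3, with array weights of 0.584 and 0.322 against 4.62. With these weights 9 sterol genes were called against untreated, adding FDPS, CYP51A1, MSMO1, NSDHL and EBP. The weighted heregulin mean rests mostly on replicate 3, in which the median sterol gene lay 0.26 above its untreated mean on the log2 scale. In replicates 1 and 2 that median was 0.22 and 0.06. With equal weights the count was 1 with all probe sets tested and 2 with only the 2 groups compared. It was 1 without heregulin replicate 1 or 3 or untreated replicate 1 or 2, and 2 without untreated replicate 3, and SQLE kept its call in each of the 12 refits. The fatty acid count was 2 without untreated replicate 1, and calls ended for ELOVL5 without heregulin replicate 1 or 3 or untreated replicate 1 or 2 and for ACSL4 without untreated replicate 1. LSS lost its call in 10 of the 12 refits, ACAT2 in 5 and HMGCS1 in 4.

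The direct comparisons between treatments do not use the untreated arrays for the change itself, only for the shared spread, and all treated cells had the same 48 hours. TGF-alpha against AP1510 asks how an EGFR ligand differs from HER2 homodimers. Sterol genes were higher with TGF-alpha in 11 of 17 and lower in 1, where 21.6% of all genes passed, 11.2% higher and 10.4% lower. ACAT2 was 2.16-fold higher, SQLE 1.75-fold, HMGCS1 1.64-fold, MSMO1 1.62-fold and FDPS 1.60-fold, with adjusted p of 8.4e-05 or less for each of these 5. TM7SF2 was lower, by 1.56-fold (log2 change -0.64 ± 0.1, adjusted p = 0.00022).

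Of 11 fatty acid genes, 4 were higher with TGF-alpha than with AP1510 and 0 lower. ACSL4 was 1.72-fold (adjusted p = 6.5e-06) higher, ACLY 1.45-fold (adjusted p = 0.00016), FADS2 1.43-fold (adjusted p = 0.0022) and FADS1 1.37-fold (adjusted p = 0.001). SREBF1 was 1.47-fold (adjusted p = 0.0004) lower and INSIG1 1.31-fold (adjusted p = 0.012) lower, while INSIG2 had a log2 change of -0.35 ± 0.13 (adjusted p = 0.071). LSS differed by -0.09 (95% interval -0.27 to 0.10, adjusted p = 0.59) on the log2 scale and IDI1 by 0.12 (95% interval -0.08 to 0.32, adjusted p = 0.45). Calls ended for MVD without AP1510 replicate 1 or TGF-alpha replicate 2 or 3, for DHCR7 without AP1510 replicate 1, 2 or 3 or TGF-alpha replicate 2 or 3 and for INSIG1 without AP1510 replicate 2 or 3 or TGF-alpha replicate 1, where the regulator count was then 1, against 2 with all arrays.

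Heregulin against AP1510 asks how a HER3 and HER4 ligand differs from HER2 homodimers. Of 17 sterol genes 1 was higher, SQLE, 1 was lower, TM7SF2, and the median log2 change was -0.08, where 7.23% of all genes passed, 3.27% higher and 3.95% lower. SQLE was 1.26-fold (log2 change 0.33 ± 0.095, adjusted p = 0.045) higher, a call that ended in 10 of the 12 refits and stayed without AP1510 replicate 1 or heregulin replicate 2. TM7SF2 was 1.42-fold (log2 change -0.50 ± 0.1, adjusted p = 0.0063) lower. The difference of HMGCS1 was -0.06 (95% interval -0.28 to 0.15, adjusted p = 0.78) on the log2 scale, that of MSMO1 -0.05 (95% interval -0.27 to 0.16, adjusted p = 0.83) and that of EBP 0.01 (95% interval -0.15 to 0.18, adjusted p = 0.95), so differences within these intervals remain possible.

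Of 5 regulators 3 were lower, and of 11 fatty acid genes 3 were higher and 2 lower. SREBF1 was 1.40-fold (adjusted p = 0.0052) lower with heregulin than with AP1510, INSIG2 1.43-fold (adjusted p = 0.023) lower and INSIG1 1.29-fold (adjusted p = 0.043) lower. ELOVL6 was 1.52-fold (adjusted p = 0.0022) lower and SCD 1.45-fold (adjusted p = 0.0017) lower, while ACSL1 was 1.51-fold (adjusted p = 0.0019) higher, ELOVL5 1.38-fold (adjusted p = 0.019) higher and ACSL4 1.29-fold (adjusted p = 0.016) higher. Counts of fatty acid genes were 3 without heregulin replicate 1 or 3 or AP1510 replicate 2 or 3, against 5 with all arrays, where ELOVL5 and ACSL4 lost their calls. Of the 12 refits, INSIG1 kept its call in those without AP1510 replicate 1 or heregulin replicate 3, and INSIG2 lost it without AP1510 replicate 1 or 2 or heregulin replicate 2, so the regulator count was 1 without AP1510 replicate 2 or heregulin replicate 2, against 3 with all arrays.

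Heregulin against TGF-alpha asks how the 2 natural ligands differ. Sterol genes were lower with heregulin in 13 of 17 and higher in 0, where 21.6% of all genes passed, 11.8% lower and 9.88% higher. The median log2 change was -0.38 over the sterol genes, -0.31 over the fatty acid genes, 0.02 over the regulators and 0.03 over all genes. The 3 heregulin arrays lay below the 3 TGF-alpha arrays in 13 sterol genes, against 17.5% of all genes. ACAT2 was lower by 2.51-fold (log2 change -1.33 ± 0.12, adjusted p = 4.2e-07), FDPS by 1.77-fold (adjusted p = 1.9e-06), HMGCS1 by 1.72-fold (adjusted p = 2.4e-05), MSMO1 by 1.69-fold (adjusted p = 3.8e-05) and SQLE by 1.39-fold (adjusted p = 0.0014). LSS differed by 0.07 (95% interval -0.11 to 0.25, adjusted p = 0.63) on the log2 scale, and TM7SF2 by 0.14 (95% interval -0.08 to 0.36, adjusted p = 0.41).

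The fatty acid genes split between the 2 ligands, with 6 lower and 1 higher with heregulin. ELOVL6 stood at 7.72, 7.89 and 7.74 in AP1510 cells, 7.82, 8.08 and 7.79 in TGF-alpha cells and 7.08, 7.09 and 7.37 in heregulin cells, against 7.64, 7.41 and 7.47 in untreated cells. Heregulin arrays were the lowest of all groups, and the TGF-alpha and AP1510 arrays overlapped at the top. With heregulin ELOVL6 was 1.64-fold (log2 change -0.72 ± 0.11, adjusted p = 0.00012) lower than with TGF-alpha, ACLY 1.57-fold (adjusted p = 1.8e-05) lower, FADS2 1.5-fold (adjusted p = 0.00075) lower, FADS1 1.46-fold (adjusted p = 0.00023) lower, ACSL4 1.33-fold (adjusted p = 0.0024) lower and SCD 1.24-fold (adjusted p = 0.024) lower. ACSL1 was the 1 gene that was higher, by 1.35-fold (log2 change 0.44 ± 0.1, adjusted p = 0.0057).

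Of the regulators, limma called 0 of 5 between the 2 ligands, also 0 at an unadjusted p under 0.05, where 31.1% of all genes had such a p, and 0 in the robust, trend, weighted and renormalised fits. SREBF1 differed by 0.08 (95% interval -0.12 to 0.28, adjusted p = 0.65) on the log2 scale, INSIG1 by 0.02 (95% interval -0.20 to 0.25, adjusted p = 0.92) and INSIG2 by -0.17 (95% interval -0.45 to 0.11, adjusted p = 0.43). Without TGF-alpha replicate 1 the count of regulators was 1. Calls of sterol genes ended for MVK without TGF-alpha replicate 1 or 2 or heregulin replicate 2 or 3 and for PMVK without TGF-alpha replicate 2 or 3 or heregulin replicate 1 or 3, and the call of SCD ended without TGF-alpha replicate 2 or 3 or heregulin replicate 2 or 3.

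**Figure D4:**
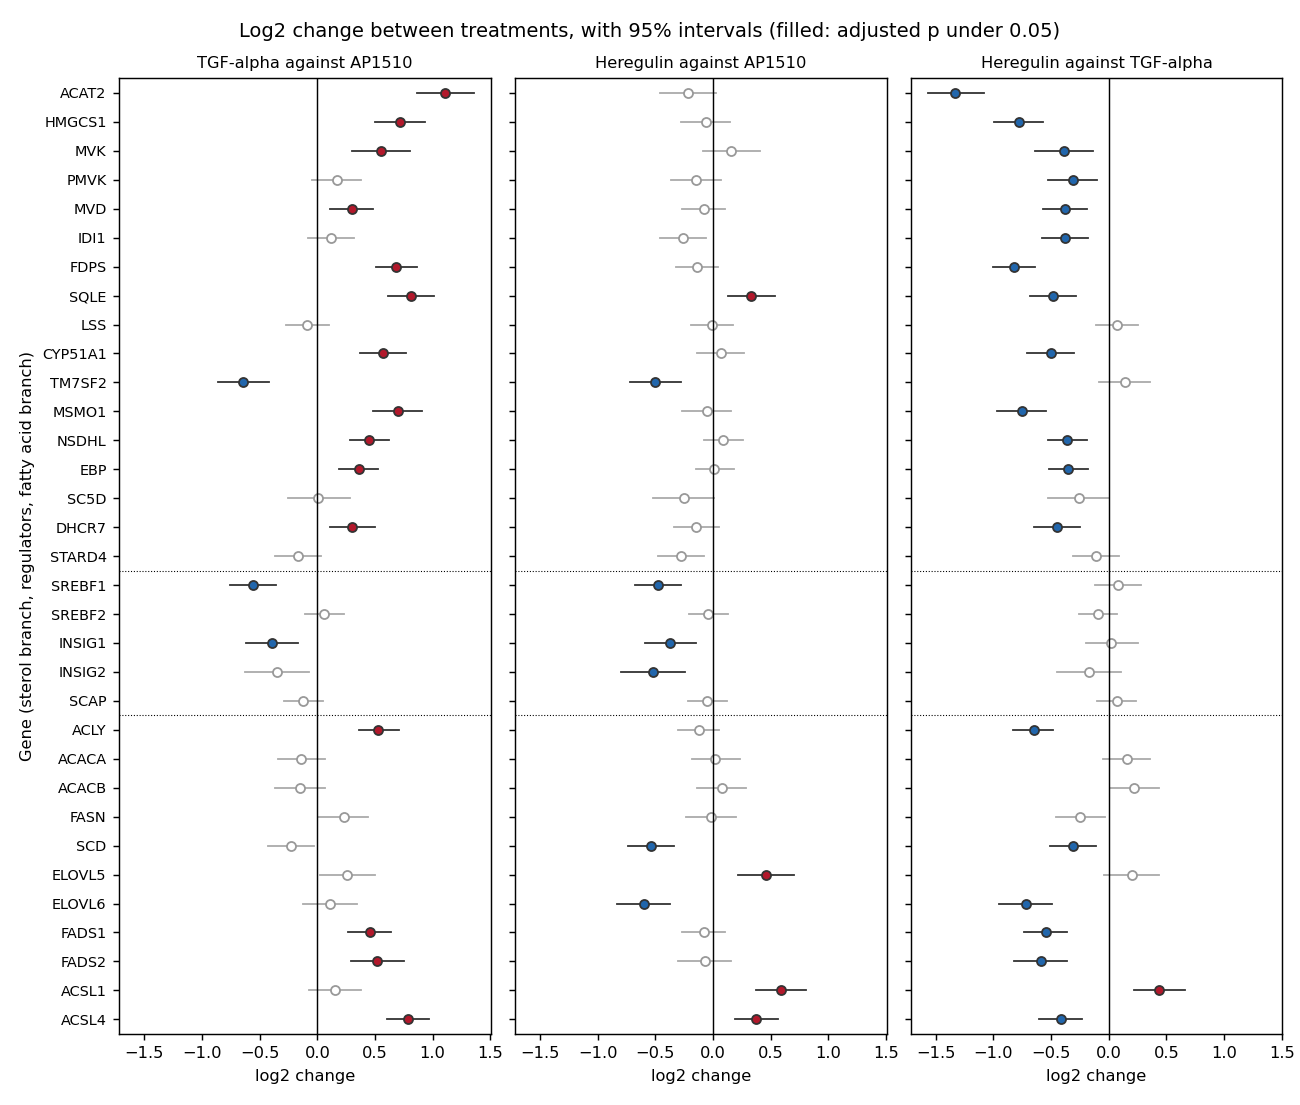
Points are log2 changes between treatments for the 33 genes, in 3 panels on a common axis, with 95% intervals as lines; filled red points passed as higher, filled blue points as lower and open points did not pass. Heregulin against TGF-alpha has 1 red and 19 blue points, TGF-alpha against AP1510 15 red and 3 blue, and heregulin against AP1510 4 red and 6 blue.

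Neighbouring lipid pathways were read from 5 lists that hold no member. Their counts stand beside shares over all genes of 0.771% higher and 0.7% lower with AP1510, 12.5% and 13.4% with TGF-alpha and 3.45% and 5.06% with heregulin, and their counts at an unadjusted p under 0.05 beside 11.1% with AP1510 and 20.3% with heregulin. Around the sterol branch, the isoprenoid list covers enzymes for ubiquinone, dolichol and protein prenylation, with those that process prenylated proteins. It had 3 of 9 measured genes higher and 2 lower with TGF-alpha. PDSS1, which builds the ubiquinone side chain, rose 1.71-fold (adjusted p = 0.0025), ICMT, which methylates prenylated proteins, rose 1.28-fold (adjusted p = 0.0062), and RCE1, which trims them, fell 1.36-fold (adjusted p = 0.00088), as did PGGT1B, a prenyltransferase subunit, by 1.28-fold (adjusted p = 0.024), a call that ended in 4 of the 12 refits. With AP1510 and with heregulin limma called 0 of 9, with 1 at an unadjusted p under 0.05 in each. Sterol storage, trafficking and export had 2 of 10 higher and 2 lower with TGF-alpha, and limma called 0 of 10 with AP1510 and with heregulin, with 3 at an unadjusted p under 0.05 in each. LIPA, the lysosomal lipase that frees cholesterol from its esters, rose 1.32-fold (adjusted p = 0.0057), and NPC1, which passes it out of the lysosome, rose 1.22-fold (adjusted p = 0.037), a call that ended in 4 of the 12 refits (adjusted p up to 0.14). MYLIP, the ubiquitin ligase that degrades lipoprotein receptors, fell 2.05-fold (log2 change -1.04 ± 0.12, adjusted p = 7.3e-06) and ABCG1, a sterol exporter, fell 1.37-fold (adjusted p = 0.0061). The ABCG1 group means were 4.16 to 4.61, below the array medians.

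Enzymes that supply acetyl-CoA, citrate and NADPH had 3 of 9 higher and 2 lower with TGF-alpha and 1 higher and 1 lower with heregulin, and limma called 0 with AP1510, with 1 at an unadjusted p under 0.05. ACSS2, which makes acetyl-CoA from acetate, rose 1.84-fold (log2 change 0.88 ± 0.083, adjusted p = 6.5e-07) and ME1, malic enzyme, a source of NADPH, rose 1.47-fold (adjusted p = 0.00065) with TGF-alpha. IDH1, cytosolic isocitrate dehydrogenase, fell 1.60-fold (adjusted p = 3e-05). ACO1, cytosolic aconitase, fell 1.36-fold (adjusted p = 0.00069) with TGF-alpha and rose 1.46-fold (adjusted p = 0.00048) with heregulin, each against untreated cells, and was higher with heregulin than with TGF-alpha by 2-fold (log2 change 1 ± 0.085, adjusted p = 3.1e-07). SLC25A1, the citrate carrier of mitochondria, fell 1.22-fold (adjusted p = 0.047) with heregulin, a call that ended in each of the 12 refits that left out 1 array.

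In glycerolipid synthesis and lipid droplets, 1 of 11 genes was higher with AP1510, 4 were higher and 2 lower with TGF-alpha, and 3 were higher and 1 lower with heregulin. LPIN1, the phosphatidate phosphatase, rose 1.69-fold with AP1510, 1.97-fold with TGF-alpha and 2.03-fold with heregulin (adjusted p = 0.012, 5.8e-05 and 0.00016), and its AP1510 call ended without untreated replicate 1. MGLL, monoglyceride lipase, rose 2.86-fold (log2 change 1.52 ± 0.097, adjusted p = 1.4e-08) with TGF-alpha, and PNPLA2, the triglyceride lipase ATGL, fell 2.06-fold (log2 change -1.04 ± 0.09, adjusted p = 2.4e-07). GPAM, which starts glycerolipid synthesis, rose 1.38-fold (adjusted p = 0.0061) with heregulin and was also called higher with TGF-alpha. Its group means were 5.58 with heregulin and 5.94 with TGF-alpha, against 5.12 in untreated cells, which is below the array medians. With heregulin PNPLA2 fell 1.24-fold (adjusted p = 0.042), a call that ended in 9 of the 12 refits. DGAT1, which makes triglyceride, fell 1.21-fold (adjusted p = 0.031) with TGF-alpha, a call that ended without TGF-alpha replicate 1 or 3 or untreated replicate 1 or 2.

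Fatty acid oxidation, the opposing pathway, had 1 of 17 genes higher and 7 lower with TGF-alpha, where 12.5% of all genes were higher and 13.4% lower, and 0 higher and 6 lower with heregulin, where the shares were 3.45% and 5.06%, and limma called 0 with AP1510, with 6 at an unadjusted p under 0.05. The median log2 changes were -0.10 with AP1510, -0.12 with TGF-alpha and -0.25 with heregulin. CPT1A, the carnitine palmitoyltransferase that admits acyl chains to mitochondria, was the gene that rose, by 2.30-fold (log2 change 1.20 ± 0.086, adjusted p = 3.7e-08) with TGF-alpha. HADHB, a subunit of the trifunctional enzyme, fell 1.76-fold (adjusted p = 2.8e-06) and ACADM, a medium-chain dehydrogenase, 1.72-fold (adjusted p = 4.4e-06) with TGF-alpha. With heregulin SLC25A20, the acylcarnitine carrier, fell 1.37-fold (adjusted p = 0.019) and ACAA2, the last thiolase of the cycle, 1.35-fold (adjusted p = 0.026), calls that ended in 4 and 3 of the 12 refits.

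**Figure D5:**
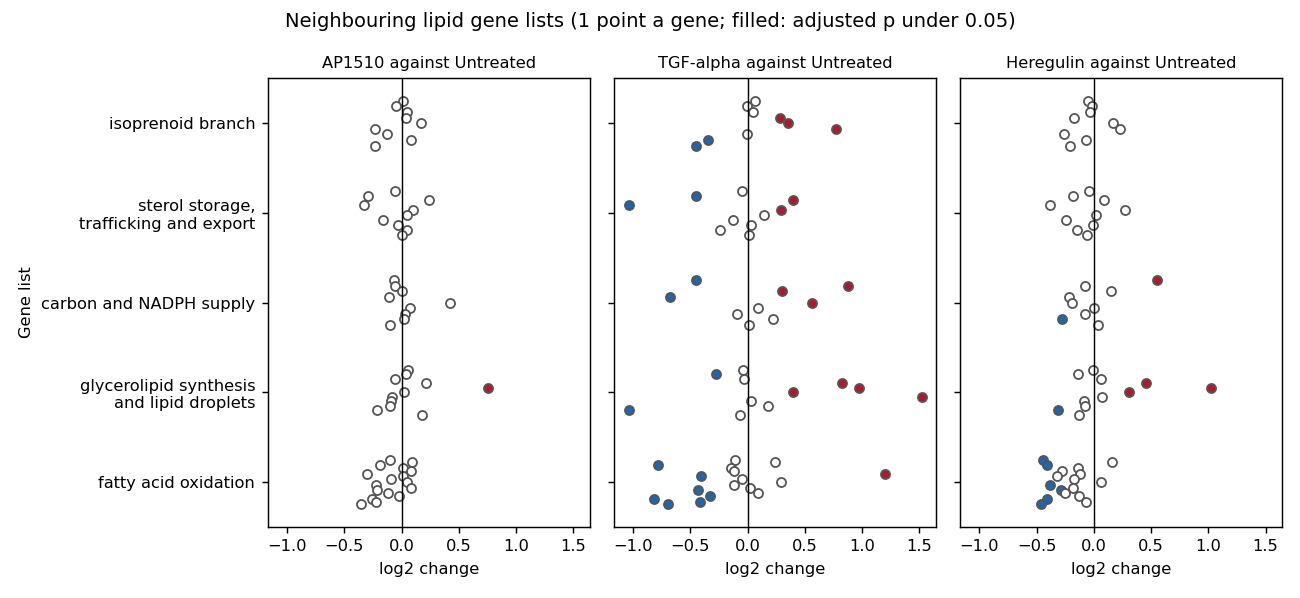
Each point is the log2 change of 1 gene against untreated cells, in 5 rows for the lists and 3 panels for the treatments on a common axis, with filled red points passed as higher and filled blue as lower. In fatty acid oxidation, 7 points are blue with TGF-alpha and 6 with heregulin, and CPT1A is the red point with TGF-alpha.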

How the data were processed

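RNA of 12 cultures was hybridised to Affymetrix arrays, per the labels' protocols. The authors deposited log2 intensities, made by RMA per the submitters' processing notes. RMA corrects background, equalises arrays and summarises probes, so global shifts between arrays are removed. No RMA version was given. The values ran from 1.75 to 14.23 and were not scaled again.

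Of 33297 probe sets, 19460 named 1 gene, 1754 named several and 12083 had none listed. The 19429 found in RefSeq by Entrez ID took its symbols (GRCh38.p14). A gene was the probe set with the highest mean, which mattered for 769 of 18417 genes. All 12 arrays entered 1 limma 3.58.1 fit (R 4.3.3) with a mean per group, 8 residual and 7.55 prior degrees of freedom, and a median moderated SD of 0.128. Contrasts were two-sided, with Benjamini-Hochberg adjustment over all genes within each contrast and a threshold of 0.05. The code was tested on simulated data. For arrays, their number limits the precision.

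All 36 members are named, and the change with TGF-alpha against untreated cells is given for the 33 measured. For the other contrasts only some changes are given. Of each neighbouring list the called genes with up to 2 largest rises and 2 largest falls in a contrast with untreated cells could be named. Members and lists were chosen with earlier results of these data known. The alternatives were limma-trend, robust estimation, array weights, repeated quantile normalization, dim genes left out, the mean of a gene's probe sets, all probe sets tested, 2 groups alone, and each array left out.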

Additional observations from a re-analysis of the deposited data

How the results depend on the processing

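No called result changed sign under any alternative run. Of 198 pairs of member and contrast, 86 passed, and 60 of these also passed in each of the 12 refits that left out 1 array. Robust estimation and the mean of a gene's probe sets moved 0 of the 198 across the threshold. Testing all probe sets ended 16 calls, the 2 groups alone ended 9 and added 1, repeated quantile normalization ended 3 and added 2, and trend, array weights and leaving out dim genes added 7, 9 and 6.

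With all probe sets tested, the sterol genes called numbered 0 for AP1510 and 1 for heregulin, each against untreated, and 1 for heregulin against AP1510. With only the 2 groups compared these counts were 2, 2 and 1, and the fatty acid count for heregulin against AP1510 was 3. Array weights, which rest the heregulin mean mostly on replicate 3, gave 9 sterol genes for heregulin against untreated. Repeated quantile normalization gave 1 for heregulin against AP1510. The causes were not tested.

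Leaving out 1 array gave, for sterol genes, 0 to 4 with AP1510, 12 to 14 with TGF-alpha and 1 to 4 with heregulin against untreated, 10 to 12 for TGF-alpha against AP1510, 1 to 2 for heregulin against AP1510 and 11 to 13 for heregulin against TGF-alpha. For fatty acid genes the ranges, in the same order, were 0 to 0, 5 to 9, 2 to 4, 4 to 6, 3 to 5 and 6 to 7. Alternatives for regulators and neighbouring lists were chosen after seeing the data. No paired analysis was possible because the labels give the groups no shared replicate numbers. ACACB lay below the array medians in all 4 groups.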
